A study of Mus musculus with 12 samples.

Results

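The transcription factors that set effector and memory fate in cytotoxic lymphocytes were examined in NK and CD8 T cells taken from tumours. The group held 9 genes, Tbx21, Eomes, Zeb2, Prdm1, Tcf7, Lef1, Bach2, Id2 and Id3, chosen by name for these roles, with earlier results of these data known, out of 54232 gene identifiers in the count table. MC38 adenocarcinoma cells were injected under the skin of mice aged 6 to 12 weeks, tumours were taken after 8 to 10 days, and 300 cells were sorted per library as NK cells (CD45+, CD3ε-, NK1.1+) or CD8 T cells (CD45+, CD3ε+, CD8a+). The mice were wild type C57BL/6N (WT), Tyk2-/- (KO, line B6N.129P2-Tyk2tm1Biat) or Tyk2K923E (KE, a germline point mutant whose TYK2 protein is made but cannot act as a kinase), both mutants on the C57BL/6N background and lacking the active kinase in every host cell, including the cells around the sorted ones. Each of the 6 groups had 2 libraries, and no other treatment was given. Nothing states that the 2 libraries of a group came from separate mice, so p-values measure the spread between these libraries, which may be technical. In 300 pooled cells, fewer cells of a type and less RNA per cell cannot be told apart.

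These factors work in opposing groups. T-bet (Tbx21) and EOMES are T-box proteins that switch on genes for cytotoxicity and IFNγ, and both are needed for NK cell maturation. ZEB2 and BLIMP-1 (Prdm1) are repressors that push NK and CD8 T cells towards a terminal effector state, whereas TCF1 (Tcf7), LEF1 and BACH2 keep cells in an early, stem-like or memory state. ID2 and ID3 carry a helix-loop-helix but no DNA-binding region, and they act by holding E proteins away from DNA: ID2 is required for NK cells and favours effector CD8 T cells, and ID3 favours memory. TYK2 is a Janus kinase behind receptors for type I interferon and for IL-12, and IL-12 is a known inducer of T-bet.

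Total counts lay between 10378761 and 14732882 per library, so 3 counts, taken as the floor because a count of 0 allows no more, correspond to 0.219 to 0.276 CPM (CPM scales each library to 1e6 counts after TMM normalisation, and the floor covers counting error only). The 2 libraries of a group correlated at 0.747 to 0.793 in log2 CPM across genes, and the common biological coefficient of variation was 109%. Labels matched the sort. Cd8a was at 2847 to 4117 CPM in CD8 libraries and 2.68 to 4.51 in NK libraries, and Ncr1, the NK receptor NKp46, at 840.0 to 2279 and 1.03 to 2.01 CPM. Tyk2 itself did not separate the genotypes, with 55.8 to 119 CPM in NK and 47.1 to 86.8 CPM in CD8 libraries (edgeR adjusted p 0.901 or above for every mutant comparison with WT), so its level checks no genotype label. The NK libraries differed in macrophage RNA: 12 macrophage markers summed to 16452 and 14017 CPM in the WT libraries, 7138.5 and 24.2 in the KO libraries, and 55.7 and 397 in the KE libraries, against 53.1 to 601 CPM in CD8 libraries.

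All 9 factors were among the 13129 genes tested, those with a mean normalised count of at least 10. Differences were tested with edgeR's quasi-likelihood F-test, two-sided, with Benjamini-Hochberg adjustment across the 13129 genes (FDR). A gene was called differentially expressed (DEG) at an FDR under 0.05 and a log2 fold change of at least 1 in size. None of the 9 met this rule in any of the 12 comparisons. In NK against CD8 cells, averaged over the 3 genotypes, 4.59% of all tested genes were called, while 4 of the 9 factors had an unadjusted p under 0.05 (19.4% of all genes did). DESeq2 called 3 of the 9, where it called 12.5% of the genes to which it gave an adjusted p. Within WT, KO and KE, 1, 3 and 2 of the 9 had an unadjusted p under 0.05, against 10.4%, 9.85% and 9.7% of all genes, and neither edgeR nor DESeq2 called any (DESeq2 called 6.92%, 7.32% and 6.88% of genes). The median log2 fold change of the 9 was 0.69, against 0.02 over all genes.

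Levels were first ordered per length, as RPKM (CPM per 1000 bases of annotated exon). In NK cells Id2 had the highest level, 724 ± 88.1 RPKM (SD, n = 6), followed by Tbx21 at 111 ± 14.6, Tcf7 at 69.7 ± 23.0, Eomes at 47.7 ± 11.8, Lef1 at 30.2 ± 10.6, Id3 at 17.6 ± 36.7, Prdm1 at 9.72 ± 6.37, Bach2 at 4.47 ± 2.92 and Zeb2 at 4.24 ± 2.95 RPKM. In CD8 cells the order was Id2 at 733 ± 248, Tbx21 at 69.5 ± 23.7, Tcf7 at 34.0 ± 13.6, Lef1 at 22.2 ± 14.1, Prdm1 at 17.9 ± 2.88, Id3 at 6.81 ± 8.79, Eomes at 4.79 ± 4.70, Zeb2 at 3.25 ± 1.63 and Bach2 at 1.76 ± 1.12 RPKM. Id2 stood above every other factor in every library. Below it, neighbours in the order had overlapping ranges in NK cells (apart from Id3, which was at or near 0 in several libraries). In CD8 cells the range of Prdm1 (14.5 to 22.1 RPKM) lay wholly above that of Eomes (0.162 to 11.0 RPKM). Eomes therefore stood above Prdm1 in every NK library and below it in every CD8 library.

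**Figure D1:**
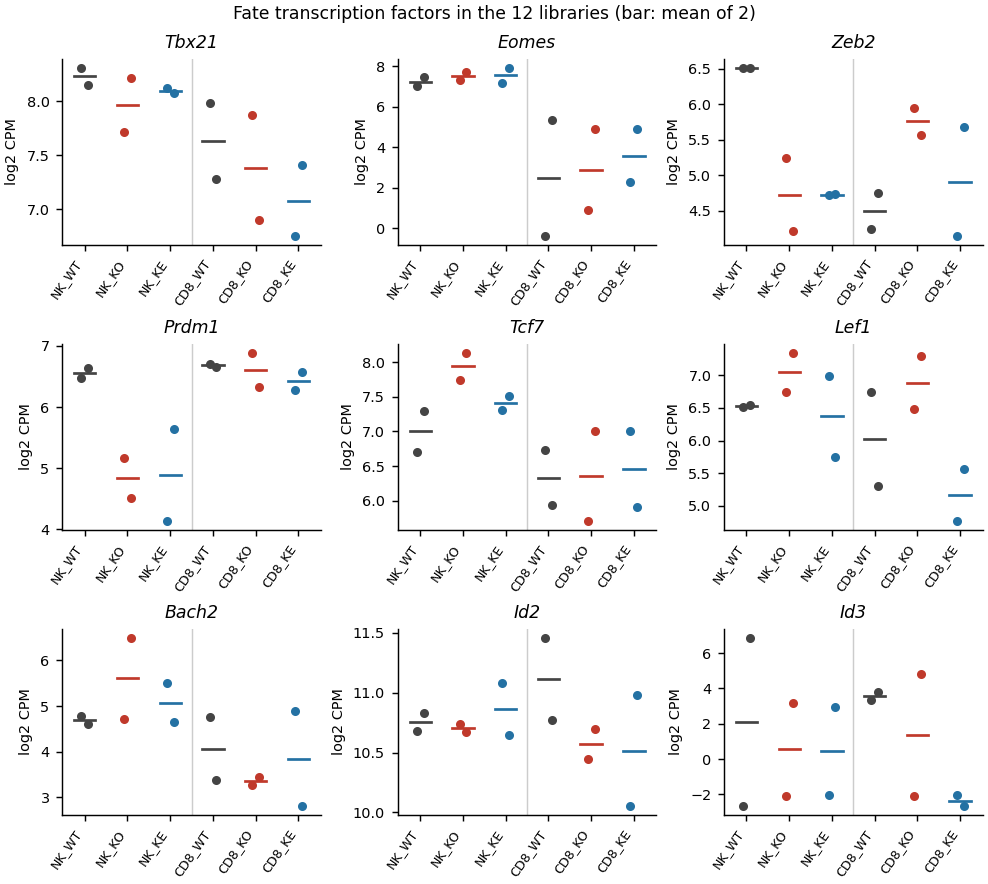
Level of the 9 factors in each library as log2 CPM (prior count 2), by group, with 2 points per group and a bar at their mean; each panel has its own axis, which does not start at 0. Eomes alone separates all 6 NK libraries from all 6 CD8 libraries, Zeb2 and Prdm1 lie lower in the 4 mutant NK libraries than in the 2 WT ones, and Id3 spans the full range from 0 counts.

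Eomes (ENSMUSG00000032446, chr9:118478212-118486132, plus strand, GRCm38) showed the largest difference between the cell types among the 9 factors. WT NK libraries held 129 and 175 CPM, KO libraries 157 and 209, and KE libraries 142 and 245. WT CD8 libraries held 0.598 and 40.5 CPM, KO libraries 1.70 and 29.4, and KE libraries 4.68 and 29.1. Every NK library was above every CD8 library, a pattern seen in 1.99% of tested genes in this direction and in 2.97% in the other, and Eomes was the only one of the 9 factors to show it in either direction. Within CD8 cells each genotype had a library near or under 5 CPM (8, 22 and 56 counts, above the floor) and a library at 29 CPM or above. The lower library was replicate 1 in all 6 groups, NK cells included. The mean difference was 3.32 on the log2 scale (SE 0.92, 95% interval 1.29 to 5.35, edgeR FDR 0.0672), and without CD8 WT replicate 2, the highest of the CD8 libraries, it was 5.04 with an FDR of 0.0179, a call. DESeq2 also called it, with an FDR of 0.000137, as did edgeR with the replicate number as a block (log2 difference 4.28, FDR 0.0209). Within single genotypes the log2 difference was 2.88 in WT, 3.55 in KO and 3.52 in KE, none called by edgeR, against a background of 0.785%, 0.914% and 0.8% of genes called. An antisense gene, Gm33460, overlaps the exons of Eomes, and since the use of strand in counting was not stated, reads of the pair cannot be told apart.

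The reverse difference was that of Prdm1 (ENSMUSG00000038151, chr10:44437177-44528501, minus strand). The CD8 libraries held 105 and 100.0 CPM (WT), 119 and 80.1 (KO), and 77.8 and 95.4 (KE), a narrow band of 96.2 ± 15.4 CPM (SD, n = 6). The NK libraries held 88.7 and 98.7 CPM (WT), 35.8 and 22.7 (KO), and 17.4 and 49.7 (KE). WT NK libraries thus lay inside the CD8 band and the 4 mutant ones below it. The mean log2 difference, NK minus CD8, was -1.09 (SE 0.31, FDR 0.0754), which came to -0.13 in WT, -1.76 in KO and -1.37 in KE. DESeq2 called the mean difference with an FDR of 0.0193, and edgeR did so without NK KE replicate 2, at -1.40 and an FDR of 0.0294.

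The sequences before the start sites of these factors, the ones with the lowest FDR among those higher and lower in NK cells, are shown for orientation, chosen after their values were seen. They are the 250 bases upstream of the RefSeq start on GRCm38.p6, in the direction of the gene. Capitals mark matches, on either strand, to CANNTG (the E-box, bound by E proteins and by ZEB2-type factors), the core of the interferon response element (TTTC, any 2 bases, TTTC) or TTCNNNGAA (the STAT site).
Eomes, chr9:118477939-118478188, plus strand: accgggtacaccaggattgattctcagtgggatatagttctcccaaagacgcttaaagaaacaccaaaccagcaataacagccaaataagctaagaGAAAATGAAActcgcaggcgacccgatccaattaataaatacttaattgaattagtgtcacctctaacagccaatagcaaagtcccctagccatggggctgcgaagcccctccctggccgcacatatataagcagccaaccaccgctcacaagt
Prdm1, chr10:44458749-44458998, minus strand: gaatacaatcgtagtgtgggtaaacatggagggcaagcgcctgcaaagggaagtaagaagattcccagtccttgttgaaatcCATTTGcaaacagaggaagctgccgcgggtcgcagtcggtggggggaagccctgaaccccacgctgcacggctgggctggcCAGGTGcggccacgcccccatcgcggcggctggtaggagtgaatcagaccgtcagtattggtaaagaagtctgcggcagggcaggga
The Eomes window held 1 match to the interferon element core, which 2.98% of 32851 promoter windows of this length held, and no match to the others. The Prdm1 window held 2 E-box matches, a motif present in 66.2% of windows, and none to the STAT site, present in 7.02%. A match is only a run of letters, and nothing was measured on these windows here.

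T-bet did not differ by a call. Tbx21 (ENSMUSG00000001444, chr11:97098071-97115331, minus strand) was at 317 and 284 CPM in the WT, 210.0 and 295 in the KO, and 278 and 269 in the KE NK libraries. The CD8 libraries were at 252 and 155 (WT), 234 and 119 (KO), and 108 and 170.0 CPM (KE). All NK libraries but KO replicate 1, at 210.0 CPM, were above every CD8 library. The mean log2 difference was 0.69 (SE 0.22, 95% interval 0.19 to 1.18, FDR 0.114), and the 3 genotypes gave 0.56, 0.51 and 0.98 in WT, KO and KE.

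**Figure D2:**
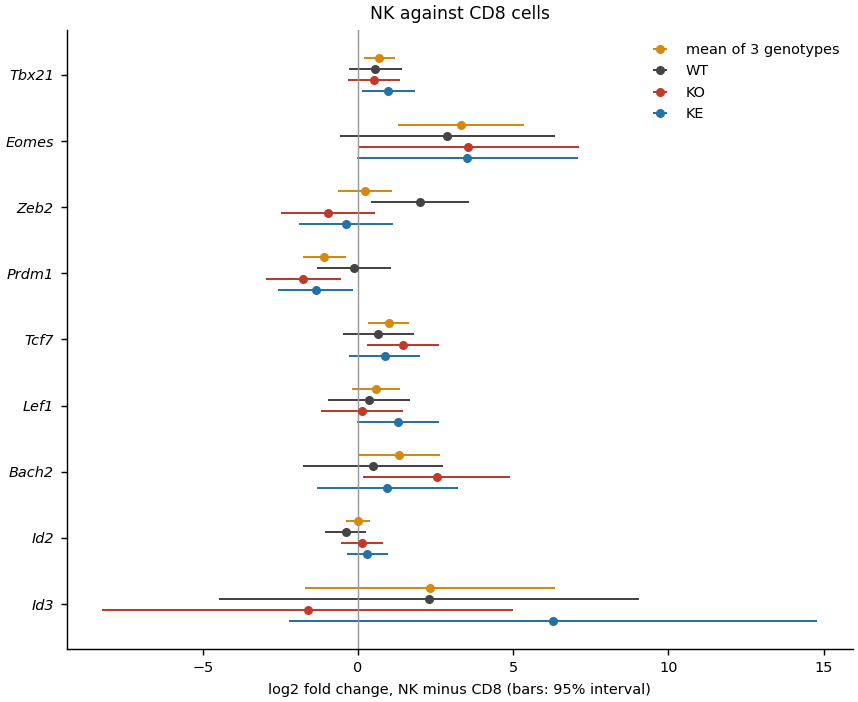
Log2 fold change of each factor, NK minus CD8, with its 95% interval, as the mean of 3 genotypes and in WT, KO and KE. Eomes has the largest mean difference with an interval above 0 (3.32), Prdm1 lies below 0 (-1.09), and Zeb2 is at 2.00 in WT but at -0.97 in KO and -0.38 in KE.

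Among the memory factors, Tcf7 (ENSMUSG00000000782, chr11:52252371-52283014, minus strand) had 104 and 157 CPM in the WT, 213 and 282 in the KO, and 159 and 182 in the KE NK libraries. The CD8 libraries had 106 and 60.7 (WT), 51.7 and 128 (KO), and 128 and 60.0 CPM (KE). All NK libraries but WT replicate 1 were above all CD8 libraries. The mean log2 difference was 0.99 (SE 0.30, FDR 0.0915) under edgeR, just under the fold that a call asks for, and 1.02 with an FDR of 0.0193 under DESeq2, which called it. Lef1, the close relative of TCF1 (ENSMUSG00000027985, chr3:131110471-131224356, plus strand), ranged from 53.5 to 163 CPM in NK and from 27.0 to 157 CPM in CD8 libraries, with a log2 difference of 0.59 (SE 0.34, FDR 0.416). Bach2 (ENSMUSG00000040270, chr4:32238804-32586108, plus strand) had 24.3 to 90.3 CPM in NK and 6.79 to 29.8 CPM in CD8 libraries, and a log2 difference of 1.32 (SE 0.60, FDR 0.258), or 0.94 without NK KO replicate 2, the highest library. Their ranges overlapped between the cell types. Exons of Lef1 and Bach2 overlap antisense genes (Gm43352 and Bach2os), with the same limit on strand as for Eomes.

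Id2 (ENSMUSG00000020644, chr12:25093799-25097140, minus strand), needed for NK cells, was the most even of the factors. Its mean level was 1764 CPM in NK and 1786 CPM in CD8 libraries, and the log2 difference was 0.01 (95% interval -0.38 to 0.39, FDR 1.0). The spread was wider in CD8 cells, from 1058.9 CPM in KE to 2826.6 CPM in WT, than in NK cells, from 1604.1 to 2171.5 CPM. Id3 (ENSMUSG00000007872, chr4:136143497-136145755, plus strand) was detected in some libraries and not in others. The NK libraries held 0 and 118 CPM (WT), 0.0775 and 9.06 (KO), and 0.0919 and 7.65 (KE). The CD8 libraries held 10.0 and 14.0 CPM (WT), 0.0771 and 28.1 (KO), and 0.0836 and 0 (KE). Thus 6 libraries had a single count or none, both KE CD8 libraries among them, and in all 3 NK groups and in CD8 KO the other library held 103 counts or more. Its log2 difference between NK and CD8 was 2.32 with an SE of 1.81 (FDR 0.592), and no fold change of Id3 can be read from these libraries.

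Zeb2 (ENSMUSG00000026872, chr2:44983632-45117395, minus strand) had 91.7 and 91.0 CPM in the WT, 37.5 and 18.3 in the KO, and 26.1 and 26.4 in the KE NK libraries. The CD8 libraries had 18.8 and 26.8 (WT), 61.7 and 47.4 (KO), and 17.5 and 51.0 CPM (KE). The WT NK libraries were the 2 highest of all 12, and both KO CD8 libraries were above both WT CD8 libraries. Averaged over the genotypes, the NK minus CD8 difference was 0.22 on the log2 scale (SE 0.39, FDR 0.925), but it was 2.00 in WT (SE 0.71, 95% interval 0.43 to 3.57, FDR 0.346), -0.97 in KO and -0.38 in KE. Exons of Zeb2 overlap Zeb2os on the other strand and Mir5129.

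The next question was whether loss of TYK2, or of its kinase activity alone, altered these factors in tumour-infiltrating cells. The 2 comparisons share their WT libraries and are not independent. In NK cells edgeR called no gene in either (0% of 13129, with 834 genes at an unadjusted p under 0.05 for KO and 796 for KE), while DESeq2 called 373 and 388 genes (3.22% and 3.42% of those with an adjusted p) and none of the 9 factors. With no filter on low counts, edgeR called 195 genes for KO and 256 for KE out of 23707, and none of the 9. Among the 9, 2 had an unadjusted p under 0.05 in each comparison, Zeb2 and Prdm1 in both, where 6.35% of all genes did for KO and 6.06% for KE. The median log2 fold change of the 9 was -0.06 for KO and -0.04 for KE, against -0.01 and 0.00 over all genes.

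Zeb2 had a log2 fold change of -1.71 in KO NK cells (SE 0.70, 95% interval -3.27 to -0.15, edgeR FDR 0.766) and of -1.80 in KE NK cells (SE 0.70, 95% interval -3.36 to -0.24, FDR 0.776). For Prdm1 it was -1.68 in KO (SE 0.55, 95% interval -2.89 to -0.47, FDR 0.705) and -1.48 in KE cells (SE 0.54, 95% interval -2.68 to -0.28, FDR 0.726). When each library was left out in turn, Prdm1 lay between -2.05 and -1.39 in KO and between -2.43 and -0.91 in KE cells. For both genes all 4 mutant NK libraries lay below both WT libraries, which was so for 10.8% of all tested genes. The opposite order, all 4 mutant libraries above both WT ones, was found for Tcf7 and for 7.11% of all genes, where the log2 fold change was 0.92 for KO (SE 0.52, FDR 0.766) and 0.39 for KE cells (SE 0.51, FDR 1.0). None of these differences passed the test. The mutant NK libraries differed from WT in other markers too: 6 NK markers summed to 5175.6 to 7874.6 CPM in the 4 mutant libraries and to 4088.8 and 4928.3 CPM in WT, and 8 T cell markers to 227 to 338 CPM in 3 of the mutant libraries and 89.3 CPM in NK KO replicate 1, against 66.0 and 112 CPM in WT. All markers of both lists had counts in every NK library, though up to 2 of the 8 T cell markers were at or under 3 counts. Cd3d was at 77.3, 112 and 120 CPM in those 3 mutant libraries, against 12.1 and 36.0 in WT. Cd8a (2.68 to 4.51 CPM over the NK libraries), Cd8b1 (1.41 to 2.33) and Cd6 (0.147 to 0.310) showed no such rise. The part of both lists in the values of Tcf7, Zeb2 and Prdm1 was not tested.

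Among the NK libraries, both repressors were highest in the WT ones, which held the most macrophage RNA. The WT libraries, with 16452 and 14017 CPM of summed macrophage markers, had 91.7 and 91.0 CPM of Zeb2 and 88.7 and 98.7 of Prdm1. NK KO replicate 1, with 7138.5 CPM of markers (Lyz2 at 3346 and Csf1r at 0.155), had 37.5 CPM of Zeb2 and 35.8 of Prdm1. The other 3 mutant NK libraries, with 24.2 to 397 CPM of markers, had 18.3 to 26.4 CPM of Zeb2 and 17.4 to 49.7 of Prdm1. The CD8 libraries, with 53.1 to 601 CPM of markers, had 17.5 to 61.7 CPM of Zeb2 and 77.8 to 119 of Prdm1. Csf1r and Adgre1, defining macrophage genes, were at 291 and 284 CPM in NK WT replicate 1 and at 300.0 and 248 in replicate 2. All 12 markers were above 3 counts in both WT NK libraries, while 2 to 7 of the 12 were at or under 3 counts in those 3 mutant libraries. The part of macrophage RNA in these differences was not tested, and in WT it cannot be told apart from genotype. A fit added after seeing the data left out the 3 NK libraries over 1000 CPM of markers and, since no WT NK library then remained, the WT CD8 libraries, so that it compared the mean of KO and KE cells. It gave -0.95 for Zeb2 (SE 0.64), -1.72 for Prdm1 (SE 0.53) and 2.08 for Bach2 (SE 0.73), and no factor was called.

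**Figure D3:**
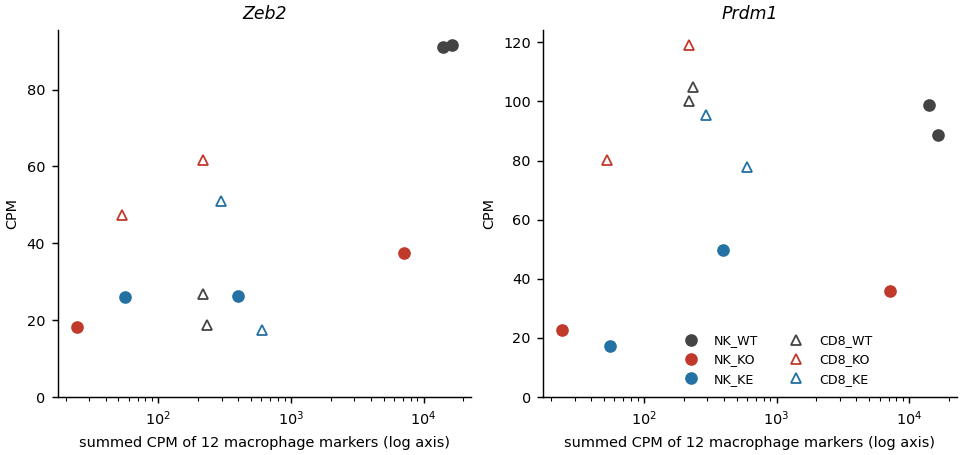
Zeb2 and Prdm1 (CPM, axes from 0) against the summed CPM of 12 macrophage markers (log axis) in the 12 libraries; filled circles are NK and open triangles CD8 libraries, coloured by genotype. The 2 WT NK libraries are the highest in markers and in Zeb2, while Prdm1 is at 77.8 to 119 CPM in CD8 libraries with 53.1 to 601 CPM of markers.

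In CD8 cells 0.0533% of genes were called in KO and 0.0838% in KE against WT, and none of the 9 factors was, with none at an unadjusted p under 0.05 and none called by DESeq2, which called 2.01% and 2.89% of genes. The median log2 fold change of the 9 was -0.05 for KO and -0.28 for KE. No factor had all 4 mutant CD8 libraries below or above both WT libraries, an order met by 7.54% and 6.84% of all genes. Prdm1 gave -0.05 in KO (95% interval -1.22 to 1.13) and -0.24 in KE (-1.42 to 0.93). Id2 was at -0.58 in both mutants (SE 0.30 each, edgeR FDR 0.888 and 0.793). Eomes was at -0.40 and -0.28 with an SE of 1.46 each, so that changes of several-fold in either direction remain inside its intervals.

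Between the mutants, which tells the missing protein from the inactive kinase, edgeR called no gene in either cell type (0% each, 505 genes in NK and 481 in CD8 cells at an unadjusted p under 0.05), and DESeq2 called 205 and 157 genes (1.66% and 1.38%), none of them among the 9. Lef1 in CD8 cells was the only factor with an unadjusted p under 0.05. Its KO libraries held 89.6 and 157 CPM and its KE libraries 27.0 and 46.9 CPM, and of the WT libraries, at 107 and 39.3 CPM, 1 fell in each of these ranges. The KO minus KE difference was 1.74 (SE 0.61, 95% interval 0.38 to 3.09, edgeR FDR 1.0). In NK cells the 9 factors differed between the mutants by -0.20 to 0.73 on the log2 scale, none with a p under 0.05, and the 95% interval was narrowest for Id2 (-0.85 to 0.49) and widest for Id3 (-6.24 to 6.71).

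**Figure D4:**
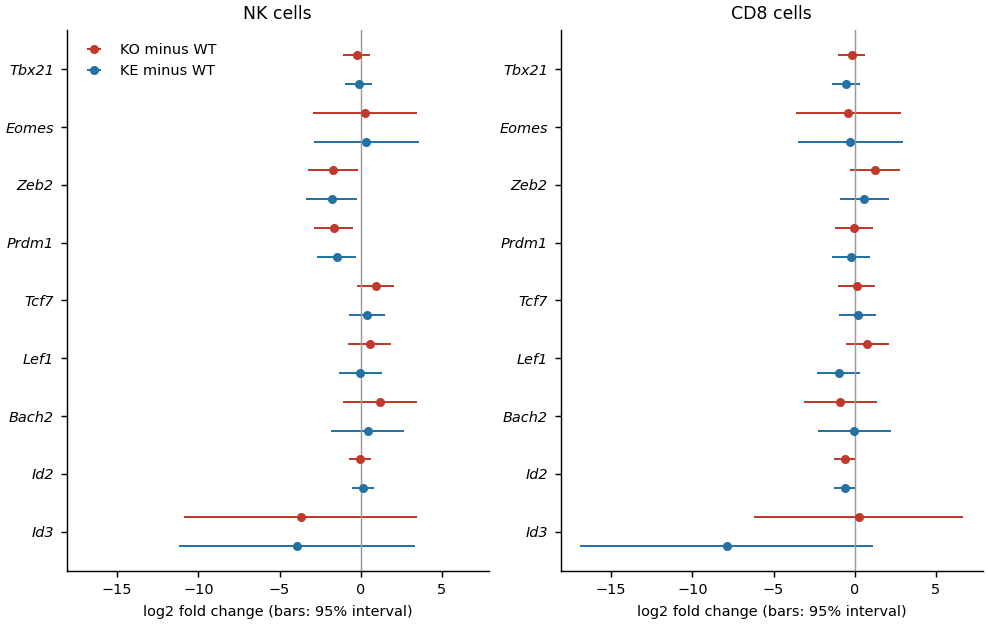
Log2 fold change of KO and of KE against WT with 95% intervals for the 9 factors in NK (left) and CD8 cells (right). In NK cells the intervals of Zeb2 and Prdm1 lie below 0 for both mutants (-1.71 and -1.80, -1.68 and -1.48) without passing the FDR, and in CD8 cells every interval includes 0.

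Whether a mutation acted differently in the 2 cell types was tested as the difference of the effects, NK minus CD8. edgeR called 0.0152% of genes for KO and 0% for KE (821 genes at an unadjusted p under 0.05 for KE), DESeq2 190 and 277 genes (1.6% and 2.44%), and neither called a factor. Zeb2 had the lowest p of the 9 in both. It was the only factor whose 2 KO libraries lay past both WT libraries in opposite directions in NK and CD8 cells, as 4.63% of all genes did, and no factor showed this order for KE, as 4.86% did. The KO effect was -1.71 in NK and 1.26 in CD8 cells, a difference of -2.97 (SE 0.99, 95% interval -5.15 to -0.78, edgeR FDR 0.891). The KE effect was -1.80 in NK and 0.59 in CD8 cells, a difference of -2.39 (SE 0.98, 95% interval -4.56 to -0.21, FDR 0.782). When each library was left out in turn, the KE difference lay between -2.96 and -1.41. The KE effect in CD8 cells then lay between -0.37 and 1.16. For Prdm1 the differences were -1.63 and -1.24, with edgeR FDRs of 0.891 and 0.856.

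E proteins, the partners that ID2 and ID3 hold away from DNA, were examined with a list of 4 genes, which also held the inhibitor Id1. Tcf4, coding for E2-2, was the only one called. It had 50.8 to 113 CPM in NK and 0.150 to 8.11 CPM in CD8 libraries, a log2 fold change of 5.65 (SE 0.81, edgeR FDR 0.0024). In the smaller fit without the 3 macrophage-rich libraries it was at 4.12 (FDR 0.143) and was not called. Tcf3 (E2A) was at 24.7 ± 17.7 CPM in NK and 11.0 ± 11.0 CPM in CD8 cells (SD, n = 6), and Tcf12 (HEB) at 57.5 ± 22.2 and 51.1 ± 16.5 CPM. Both Tcf3 and Tcf12 missed the threshold, with FDRs of 0.553 and 0.914. Id1 was at 0 in whole groups and could not be tested on the mean of the genotypes.

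A wider list of 39 transcription factors of lymphocyte fate had 36 tested members. Of these, 5 were called higher and 4 lower in NK than in CD8 cells, 9 of 36 where 4.59% of all genes were called, and the median log2 fold change was 0.14. NK cells had more Hhex, a homeobox factor of NK survival (149 ± 60.1 against 14.0 ± 10.7 CPM, log2 fold change 3.61, edgeR FDR 0.000126). Irf8, which carries interferon and cytokine signals in NK cells, was higher by 1.96 (1012 ± 431 against 257 ± 105 CPM, FDR 0.000464), although macrophages also use it. Nfil3, an early NK lineage factor, and the chromatin organiser Satb1 were higher by 1.08 and 1.09 (FDR 0.0229 and 0.0207), close to the fold rule, and kept the call in 2 and 4 of the 12 fits that left out 1 library. Klf12 was at 2.36 to 23.7 CPM in NK libraries and at or under 0.167 CPM, below the floor, in CD8 libraries (FDR 0.0166), a call kept in 6 of the 12 such fits.

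The 4 called higher in CD8 cells were Irf4, Tox, Bcl11b and Runx2. Irf4, induced by the receptor, was at 39.9 to 146 CPM in CD8 libraries and at 0 to 1.23 CPM in NK libraries (FDR 0.00025). Tox, the factor of T cell exhaustion, was at 63.5 to 435 CPM against 15.7 to 63.9 (log2 fold change -2.85, SE 0.48, FDR 0.00596). Bcl11b, which holds T cell identity, was at 19.1 to 77.1 CPM against 0.167 to 7.20 (-4.57, SE 0.96, FDR 0.0197, a call kept in 7 of the 12 fits that left out 1 library), and Runx2 at 128 to 172 CPM against 18.6 to 77.5 (-1.69, SE 0.20, FDR 0.000626). The ranges of Irf4, Bcl11b and Runx2 did not overlap between the cell types, and those of Tox overlapped by 1 library each. In all, 21 of the 36 had an unadjusted p under 0.05, where 19.4% of all genes did, and Ets1 (-0.80, FDR 0.0449) missed only the fold rule. The smaller fit without the 3 macrophage-rich NK libraries called 3 of the 36, Hhex, Satb1 and Irf4. In it Tox was at -3.11 (FDR 0.0516), Bcl11b at -4.23 (FDR 0.114) and Klf12 at 7.04 (FDR 0.239), while Irf8 was at 1.48 (FDR 0.0736), Runx2 at -1.05 (FDR 0.14) and Nfil3 at 0.60 (FDR 0.425). None of the 36 was called by edgeR in a mutant comparison or in the difference of effects, with 0 to 6 at an unadjusted p under 0.05, whereas DESeq2 called 0 to 3 in each, Ets1 and Runx2 in NK cells of both mutants.

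**Figure D5:**
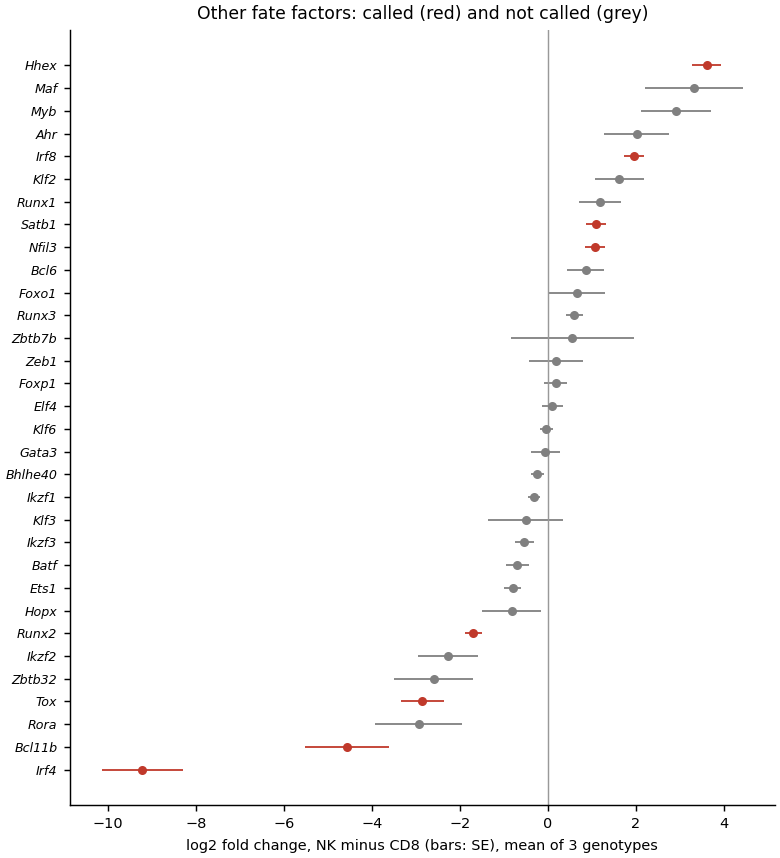
Log2 fold change, NK minus CD8 with its SE, of the 32 tested members of the wider list that had counts in every group; red points were called. Hhex and Irf8 lie to the right (3.61 and 1.96) and Irf4, Bcl11b and Tox to the left (-9.22, -4.57 and -2.85), and 16 of the 32 lie on each side of 0.

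Genes that read out these fates were taken from 4 further lists, to be read against the 4.59% of all genes called between NK and CD8 cells. Of 12 effector genes, several of them known targets of T-bet and EOMES, 3 were called higher in NK cells and 1 lower. Their median log2 fold change was -0.08. Without a call, Nkg7, Ccl5, Gzmb, Ifng and Cx3cr1 were lower in NK cells (-0.52, -0.50, -0.91, -1.49 and -2.18), and Gzma, Fasl and Klrg1 were higher. Prf1, coding for perforin, was at 1676 ± 706 CPM in NK and 603 ± 231 CPM in CD8 cells (log2 fold change 1.44, FDR 0.0176), S1pr5, an exit receptor controlled by T-bet and ZEB2, at 7.26 to 99.9 against 0 to 4.41 CPM, and Itgam, an NK maturation marker that macrophages share, at 1.84 to 57.5 against 0 to 6.50 CPM. The call of Itgam was kept in 2 of 12 fits that left out 1 library and that of Prf1 in 9. Ly6c2 was lower in NK cells (-2.48, FDR 2.35e-05). Ly6c2 was also the only gene of these lists that edgeR called in a KO comparison, with a mean of 751 CPM in KO, 1413.7 CPM in KE and 3845 CPM in WT CD8 cells (-2.36, SE 0.31, edgeR FDR 0.0348), a call kept in 4 of 12 fits that left out 1 library. DESeq2 called Ly6c2 lower in CD8 cells of both mutants and in KO NK cells. The median log2 fold change of the 12 against WT was -1.52 in KO and -1.37 in KE CD8 cells, and -0.62 and -0.72 in NK cells. In CD8 cells 3 and 4 of the 12 had an unadjusted p under 0.05, where 4.84% and 5.62% of all genes did. In NK cells 2 and 3 did, where 6.35% and 6.06% of all genes did.

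The list of 14 naive and memory genes, which TCF1, LEF1 and BACH2 help to keep on, was split, with 3 called higher and 7 lower in NK cells and a median of -1.79. Bcl2, a survival gene, and Xcl1, a chemokine, were higher in NK cells by 1.47 and 2.34 on the log2 scale. Ltb, Cd28 and Ccr7 were lower, at -1.75, -2.27 and -4.17. Xcl1 was the only gene of these lists that edgeR called in a KE comparison, with 908 CPM in KE and 27.2 CPM in WT CD8 cells (5.06, SE 0.65, FDR 0.0335), with 197 CPM in KO, and it too was kept in 4 of 12 such fits. Against WT, DESeq2 called genes of these 4 lists both higher and lower in each cell type of each mutant. The median log2 fold change of the 7 residency genes against WT was 1.28 in KO and 1.70 in KE NK cells, with 3 and 4 of the 7 at an unadjusted p under 0.05. In CD8 cells it was -0.28 and -0.17. Of 9 exhaustion genes 7 were called lower in NK cells and none higher, led by Lag3 (-4.52), Pdcd1 (-8.74) and Havcr2 (-6.03), and of 7 residency genes 2 were lower, Cxcr6 (-6.34) and Cd200r1 (-4.65), the latter a call kept in 2 of 12 fits that left out 1 library. Without the 3 libraries rich in macrophage markers the called genes numbered 2 of 12 effector, 6 of 14 naive and memory, 5 of 9 exhaustion and 1 of 7 residency genes, in a fit with fewer libraries that called 236 genes in all. The residency gene was Cd69, and Cxcr6 (-5.44, FDR 0.0892), Cd200r1 (-3.63, FDR 0.253), Prf1 (1.28, FDR 0.247), Itgam (5.29, FDR 0.345), Xcl1 (1.25, FDR 0.279) and Ltb (-1.52, FDR 0.0504) were not called in it.

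The genes closest in pattern to each factor were found as the smallest root mean square difference in log2 CPM over the 12 libraries, after each gene was centred on its own mean. Tcf7 was closest to Bcl2, the survival gene of the memory list, at 0.34, where its own spread was 0.73, and then to Ugcg at 0.40. Tbx21 was closest to Ext2 (0.22, own spread 0.50) and Vav1 (0.30), Prdm1 to Gnpda1 (0.29, own spread 0.88) and Ldb1 (0.40), and Zeb2 to Snx5 (0.43, own spread 0.82) and Pitpna (0.46). Bach2 lay nearest to Arhgef2 and Hdac4 (0.43 and 0.49), Lef1 to Picalm and Nfatc2 (0.40 each), and Id2 to Zfand6 and Cdc42 (0.17 and 0.18). For Eomes and Id3 the nearest genes were far, Qrfp at 0.96 and Fam234b at 1.69. Within the 9, the smallest distance was that of Tbx21 and Id2 (0.47). It exceeded the own spread of Id2 (0.33) and was near that of Tbx21 (0.50), so it shows no common pattern. Tcf7 and Bach2 came next (0.57, where the own spread was 0.73 for Tcf7 and 1.01 for Bach2). These distances describe 12 libraries that share 6 groups and carry no test.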

How the data were processed

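RNA was sequenced from 12 tumour-derived NK and CD8 T cell libraries by Smart-seq2, which amplifies polyadenylated RNA by PCR. The authors trimmed single-end reads of 50 bases with Trimmomatic 0.32, aligned them to GRCm38 with STAR 2.7.1 and deposited raw read counts per gene, made from uniquely aligned reads over exons of the Ensembl release 93 basic annotation with GenomicAlignments 1.6.3. The labels call the libraries stranded, and the use of strand in counting is not stated. Without molecular identifiers, PCR copies of a molecule cannot be told apart. Groups and replicate numbers came from sample titles. All 12 libraries were fitted with a mean per group in edgeR 4.0.16 (R 4.3.3; TMM, robust quasi-likelihood), the spread being shared by the 6 groups, after genes with a mean normalised count under 10 were dropped. The SE was the log2 fold change divided by the root of F. The mean over genotypes could not be tested for 1051 genes with a group at 0, none of them among the 9 factors. DESeq2 1.42.0, size factors, filters, single-group fits, a replicate block and leaving out each library were the alternatives. Exon lengths came from GENCODE annotation of GRCm38 and promoter windows from RefSeq (GRCm38.p6). The fit was also run on simulated counts with known folds, and the share of them recovered is not reported here. The 9 factors and all lists were chosen with earlier results of these data known. Named were the 9 factors, the called genes of the lists (at most 6 in each direction for other fate factors and 3 for the rest, by FDR) and the 2 genes nearest in pattern to each factor. A few values outside this rule, such as those of Ets1, were added after they were seen. The values of 1 called gene of the naive and memory list, which its counts include, are not reported here.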

Additional observations from a re-analysis of the deposited data

Results flagged for a closer look

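Zeb2 stood out because its KO libraries lay on opposite sides of the WT libraries in the 2 cell types, an order seen in 4.63% of the tested genes and, among the 9 factors, in Zeb2 alone. Both KO NK libraries (37.5 and 18.3 CPM) were below both WT NK libraries (91.7 and 91.0 CPM), and both KO CD8 libraries (61.7 and 47.4 CPM) were above both WT CD8 libraries (18.8 and 26.8 CPM). The difference of the KO effects, NK minus CD8, was -2.97 on the log2 scale (SE 0.99), with an adjusted p of 0.891 by edgeR's quasi-likelihood test with Benjamini-Hochberg adjustment over all genes. The value lay between -3.57 and -2.54 when each library was left out in turn. The WT NK libraries also held the most macrophage marker RNA (16452 and 14017 CPM summed over 12 markers, against 217 and 233 CPM in WT CD8 libraries), and its part in this difference was not tested.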

How the results depend on the processing

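Of the 9 factors, 0 were called in each of the 12 comparisons, and this count changed in 4 of them. For NK against CD8 over the 3 genotypes, 3 were called by DESeq2 (Eomes, Tcf7, Prdm1), 2 with no filter on low counts (Eomes, Tcf7), 1 in an additive model of genotype and cell type (Eomes) and 0 to 1 when each library was left out. With no filter 1 factor, Eomes, was also called in each of WT, KO and KE. The number of all genes called depended on the filter too. Across the mutant comparisons and the differences of effects, edgeR called 0 to 11 genes with the filter and 82 to 256 without it. The additive model and the fit without the macrophage-rich libraries were chosen after seeing the data. The cause of these changes was not tested. A fit of only the groups compared was not made for the mean over genotypes, which uses all of them. Nothing states whether replicate numbers pair libraries across groups. Over the tested genes, the within-group differences correlated between groups at -0.0264 to 0.0372, which cannot show whether single genes shared an influence. The replicate block called 1 factor (Eomes, log2 fold change 4.28, adjusted p = 0.0209 by edgeR) and no factor in the other comparisons.

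Across 1845 refitted log2 fold changes of the 9 factors, 83 changed sign, none of them a call, and 65 of these were in mutant comparisons. Of the 27 calls named from other lists, 27 were kept by DESeq2, 27 by other size factors, 27 with no filter, 23 with the block and 19 to 24 when a library was left out. Of the 25 between NK and CD8 cells, 23 were kept by the additive model and 12 without the macrophage-rich libraries. Both mutant calls (Ly6c2, Xcl1) were lost when only CD8 libraries were fitted. With 2 libraries per group, a group with 1 left is assumed to vary as the others do. Among the 9 factors depth limits Id3, since the others had at least 8 counts in each library, and it also limits other named genes that were under 3 counts in some libraries, such as Klf12, Tcf4 and Irf4.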
